A study of Mus musculus with 2 samples.

Results

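Cluster 21 of the authors' clustering is the largest of the alveolar myofibroblast clusters in the control library of a mouse lung study. Its members are all cells that the authors' deposited cell table gives the cluster number 21, 1358 of 22963 annotated cells, and no measured value was used here to choose them. They comprised 384 of 9454 annotated cells in the 5E1 library and 974 of 13509 in the IgG library. Droplet single-cell RNA sequencing (10x Genomics 3' chemistry) counts transcript molecules by unique molecular identifiers (UMIs). Pups of the 5E1 group carried the alleles Gli1CreERT2/+ and R26RtdT/+, received tamoxifen under the skin at postnatal day 1 and 5E1, an antibody against Hedgehog ligands, at day 3, and their lungs were taken at day 6. Pups of the IgG group had the same genotype, tamoxifen and schedule, with control IgG in place of 5E1. Both groups thus carry a tamoxifen-inducible Cre recombinase at 1 Gli1 allele and a tdTomato reporter, so the reporter labels cells with Gli1 expression around the time of tamoxifen, and the other Gli1 allele is the only intact copy in both groups. Lungs of 3 pups were pooled into each of the 2 libraries, so no difference between 5E1 and IgG has a replicate check, and no test was made. All intervals are exact 95% intervals of UMI or cell counts and cover counting error only.

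Alveolar myofibroblasts are contractile cells of the alveolar septa that lie at septal tips and lay down the elastic fibres of the forming alveoli. They are known to descend largely from mesenchyme that responds to platelet-derived growth factor (PDGF) and to Sonic hedgehog from the epithelium. Hedgehog ligands bind Ptch1, which releases Smo and leads to transcription of Gli1, Ptch1 and Hhip, and 5E1 binds the ligands and blocks this step.

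The cells carried Agt, Tgfbi, Fgf18 and Acta2, the markers given with their label, but little Pdgfra. Levels are given as UMIs per 1000000 UMIs of the cluster in a library (CPM). Agt, which encodes angiotensinogen (mouse genome GRCm38, chromosome 8, 124556534 to 124569706, minus strand, a protein-coding gene), had 781 CPM in the 5E1 and 689 CPM in the IgG library. Tgfbi, a matrix protein induced by transforming growth factor beta (chromosome 13, 56609523 to 56639562, plus strand), had 4044 and 4980 CPM in the 5E1 and IgG libraries. Fgf18, a fibroblast growth factor ligand (chromosome 11, 33117430 to 33147400, minus strand), had 419 CPM in the 5E1 and 387 CPM in the IgG library. Each of these 3 genes was higher in cluster 21 than in any of the other 22 clusters of either library. Acta2, smooth muscle actin (chromosome 19, 34241090 to 34255590, minus strand), had 2329 CPM in the 5E1 and 5731 CPM in the IgG library. It ranked 4 and 3 among the clusters there. Clusters 16 and 22 were above it, with 14848 and 10034 CPM in the 5E1 and 13822 and 9128 CPM in the IgG library. In the 5E1 library cluster 23 was above it too. Pdgfra, the PDGF receptor often used to identify these cells, was low, with 39.4 CPM in the 5E1 and 45.4 CPM in the IgG library. It had 173 and 163 CPM in cluster 12 and 192 and 160 CPM in cluster 23 (5E1 and IgG). The reporter transcript of tdTomato had 1246 CPM in the 5E1 and 1391 CPM in the IgG library, and 60.7% of 5E1 and 76.7% of IgG cells of the cluster had at least 1 of its UMIs. In cluster 4, a cluster with B cell markers, 21.1% of 5E1 and 21.6% of IgG cells had one. The median UMIs per cell were 4022.5 (5E1) and 4981.5 (IgG) in cluster 21 and 3325 and 2498.5 in cluster 4.

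**Figure D1:**
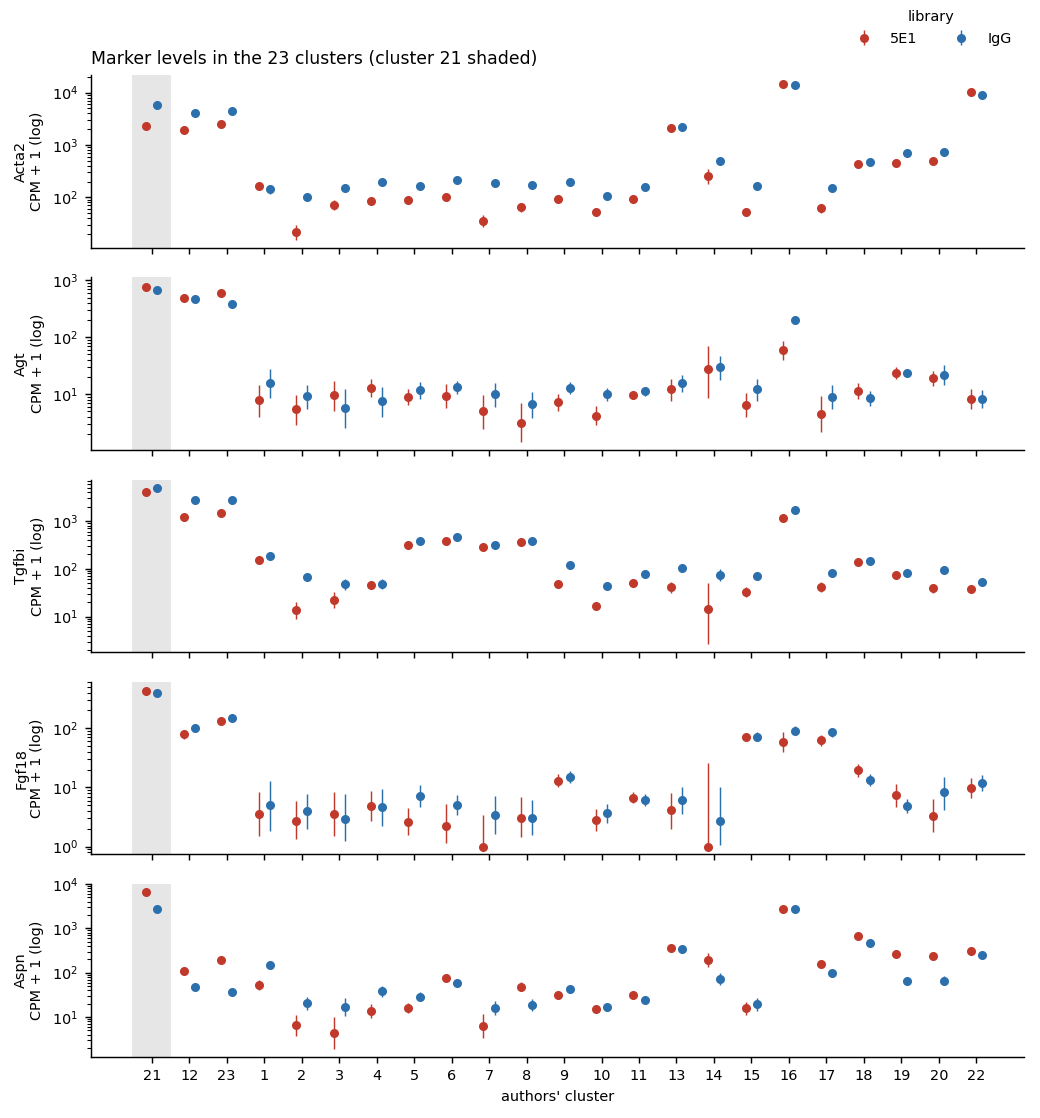
Level of 5 genes (CPM + 1, log axis) in each of the 23 authors' clusters, with cluster 21 shaded and clusters 12 and 23 beside it; red points are the 5E1 library, blue points the IgG library, and bars are exact 95% Poisson intervals. Agt, Tgfbi, Fgf18 and Aspn are higher in cluster 21 than in every other cluster of the same library. Acta2 is higher in clusters 16 and 22 and, in the 5E1 library, in cluster 23.

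The libraries differed in ways that touch every comparison between them. Cluster 21 held 1698748 UMIs in the 5E1 and 5131657 UMIs in the IgG library, with medians of 1801 and 2129 genes per cell. Xist, the RNA of the inactive X chromosome, was seen in 23.4% of 5E1 cells (90 of 384) and in 97.6% of IgG cells (951 of 974). Y-linked genes gave 163 UMIs in 120 of the 5E1 cells and 0 UMIs in the IgG cells, so sex and antibody cannot be told apart across the whole cluster. Values for the 83 cells of the 5E1 library with an Xist UMI and no Y-linked UMI are therefore given beside several of the results. Blood genes also differed: markers of red cells summed to 2087 CPM in the 5E1 and 255 CPM in the IgG library. Of the 1284 UMIs of the haemoglobin gene Hbb-bs in the 5E1 library, 1118 were in 1 cell, and in cells thinned to 1000 UMIs 10.5% of 5E1 and 12.1% of IgG cells had a Hbb-bs UMI. S100a8, a neutrophil gene, was alike in this, with 745 of its 1171 UMIs in 1 cell of the 5E1 library, against 40 of 358 in the highest cell of the IgG library. The libraries shared 184 of their cell barcodes, 1 of them in cluster 21 of both.

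The 10 genes of highest fold over all other cells included Lrrc15, Aspn, Scx, Pappa2 and the growth factor genes Fgf9 and Fgf18. These are a description, since the clusters were built from the same genes. Lrrc15, a membrane protein of activated fibroblasts, had 74.8 CPM in the 5E1 and 124 CPM in the IgG library, 81.8-fold and 38.5-fold the level over all other cells. Aspn, the small leucine-rich proteoglycan asporin (chromosome 13, 49544443 to 49567565, plus strand), was 48.2-fold and 19.5-fold above the other cells, and Scx, the tendon transcription factor scleraxis, 23.6-fold and 17.6-fold, with 353 CPM in the 5E1 and 355 CPM in the IgG library. Pappa2, a protease of insulin-like growth factor binding proteins, was 33.7-fold and 11.8-fold above them, with 117 CPM in the 5E1 and 88.7 CPM in the IgG library. The rest of the 10 genes of highest fold were the ligands Fgf9 and Fgf18, the collagen Col12a1, the phosphodiesterase Pde10a, the ectoenzyme Enpp1 and the scavenger receptor family member Ssc5d, which had the lowest fold in the IgG library, 10.9. All 10 genes were highest in cluster 21 in both libraries.

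Among the other 22 clusters, the 2 whose profile was most like cluster 21 were cluster 23 and then cluster 12. Over 9388 genes, the correlation of log2(CPM + 1) with cluster 23 was 0.946 in the 5E1 and 0.962 in the IgG library, and with cluster 12 it was 0.875 and 0.928. The cluster next after cluster 12 was close to it: cluster 18 at 0.869 in the 5E1 and cluster 16 at 0.915 in the IgG library. These are correlations across genes of pooled cells, given as a description.

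Against cluster 12, cluster 21 had more matrix and less cell division. Among 9478 genes of the 5E1 library whose UMIs in both clusters came to 20 or more, 1091 (11.5%) were at least 2-fold higher in cluster 21 and 806 (8.5%) at least 2-fold lower. In the IgG library these were 997 (8.48%) and 716 (6.09%) of 11753 genes. Aspn stood highest when genes were ordered by the lower of their 2 folds, with 6544 CPM in cluster 21 against 110 CPM in cluster 12 of the 5E1 library and 2764 against 47.7 CPM in the IgG library. Ptgis, the prostacyclin synthase, had 449 against 25.9 CPM in the 5E1 and 311 against 28.6 CPM in the IgG library, and Kcnj8, a potassium channel subunit also found in pericytes, 309 against 16.7 CPM and 149 against 11.9 CPM. Each of these genes was above 10-fold in both libraries. All 30 listed genes of the G2 and M phases were lower in cluster 21, with medians of −5.28 in the 5E1 and −3.80 in the IgG library on the log2 scale. Birc5, a mitotic survival gene, was 47.0-fold lower in cluster 21 in the 5E1 library (10.0 against 470 CPM) and 15.1-fold lower in the IgG library (24.9 against 376 CPM). In cells thinned to 1000 UMIs, 1.83% of cluster 21 cells of the 5E1 library (95% interval 0.740 to 3.74) had at least 2 UMIs of that list, against 80.8% in cluster 12. In the IgG library the shares were 3.82% (2.70 to 5.22) against 60.7%. Without thinning they were 10.2% against 94.6% in the 5E1 and 20.4% against 88.6% in the IgG library.

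Against cluster 23, Aspn, Lrrc15 and the junction gene Gja1 were higher, and Stc1, Cd34, Pdgfra, Etv4 and Etv1 were lower. Of 10257 genes in the 5E1 library, 704 (6.86%) were at least 2-fold higher and 368 (3.59%) at least 2-fold lower in cluster 21, and of 11268 in the IgG library 792 (7.03%) and 191 (1.7%). Gja1, the gap junction protein connexin 43, had 380 CPM in cluster 21 against 23.7 CPM in cluster 23 of the 5E1 library and 192 against 16.5 CPM in the IgG library. Stc1, a secreted glycoprotein, stood at the other end, with 27.7 against 265 CPM in the 5E1 and 12.1 against 71.1 CPM in the IgG library. Etv4 and Etv1, ETS factors induced by fibroblast growth factor signalling, were 2.36-fold and 2.55-fold lower in cluster 21 of the 5E1 library and 3.51-fold and 3.19-fold lower in the IgG library. The fibroblast growth factor list as a whole had 6 of 16 measured genes higher and 10 lower in the 5E1 library (median log2 −0.47) and 7 of 18 higher and 11 lower in the IgG library (−0.21). The pathway's ligands Fgf9, Fgf18 and Fgf7 were higher in cluster 21: Fgf9 had 66.5 against 0.847 CPM in the 5E1 and 56.5 against 5.50 CPM in the IgG library. Cd34, a surface sialomucin, was 5.87-fold and 4.39-fold lower, and Pdgfra 4.87-fold and 3.52-fold lower.

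**Figure D2:**
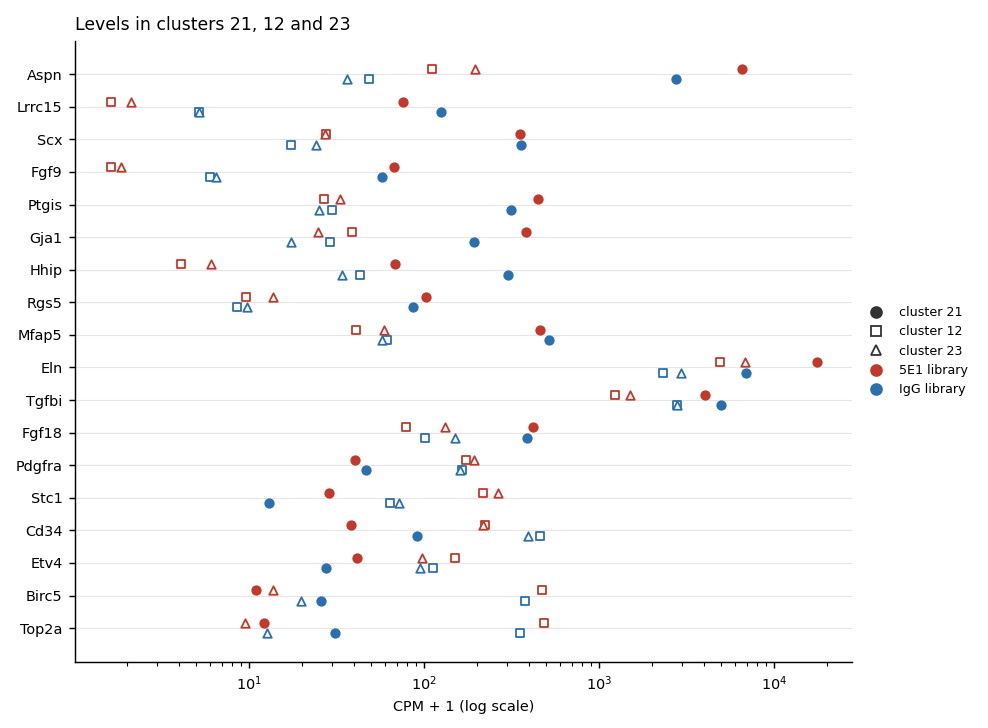
Level (CPM + 1, log axis) of 18 genes in cluster 21 (filled circles), cluster 12 (open squares) and cluster 23 (open triangles), in the 5E1 library (red) and the IgG library (blue). Aspn to Fgf18 lie to the right in cluster 21 of the same library, Pdgfra to Etv4 lie to the left, and Birc5 and Top2a separate cluster 12 from the other 2 clusters.

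Several gene groups were higher in cluster 21 than in both of these clusters. All 11 interstitial collagen genes were higher in each of the 4 comparisons, with medians of log2 1.47 (cluster 12, 5E1), 1.11 (cluster 12, IgG), 1.20 (cluster 23, 5E1) and 0.82 (cluster 23, IgG). For the elastic fibre list, 17 of 19 measured genes were higher than in cluster 12 in the 5E1 library and 17 of 20 in the IgG library, and 19 of 20 and 18 of 20 were higher than in cluster 23. The median over all genes tested was 0.09 to 0.10 in these comparisons. Markers of other mesenchymal cells were higher with them: the adventitial fibroblast markers, which include Dpt and the collagen Col14a1, summed to 1244 CPM in cluster 21 of the 5E1 library against 189 in cluster 12 and 231 in cluster 23, and to 1020 against 309 and 341 CPM in the IgG library. The pericyte markers summed to 557 against 149 and 234 CPM in the 5E1 and 340 against 120 and 178 CPM in the IgG library. Their part in the result was not tested. The antagonists Grem1 (of bone morphogenetic proteins) and Fst (of activins) were higher too: Grem1 had 48.3 CPM in cluster 21 of the 5E1 library against 3.70 in cluster 12 and 1.69 in cluster 23, and in the IgG library 24.9 against 1.51 and 1.29 CPM. The contractile list was mixed: 14 of 21 measured genes were higher than in cluster 12 in the 5E1 library (median log2 0.28) and 18 of 22 in the IgG library (0.49), and 9 of 21 (−0.03) and 15 of 22 (0.25) were higher than in cluster 23. Cnn1, the smooth muscle calponin, had 261 CPM in cluster 21 of the 5E1 library against 68.5 in cluster 12 and 41.8 in cluster 23, whereas Actn1, an actin cross-linker found in most cells, had 120 CPM against 244 and 240. In the IgG library Cnn1 had 651 against 146 and 141 CPM and Actn1 235 against 360 and 365 CPM. Lef1 and Tcf7, nuclear partners of beta-catenin, were lower than in both clusters in both libraries; Lef1 had 8.24 CPM against 48.1 and 63.3 in the 5E1 library and 15.4 against 40.2 and 46.2 in the IgG library (clusters 12 and 23).

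The remaining comparison asks how cluster 21 differed between 5E1 and IgG. Among 11046 genes whose UMIs in both libraries came to 20 or more, 242 (2.19%) were at least 2-fold higher and 506 (4.58%) at least 2-fold lower in the 5E1 library. The median over all of them was log2 −0.04, and 45.4% lay above 0 and 54.6% below. The share of all these genes whose interval excludes equal levels is not given here. Counts of list members with such an interval, below, thus have no share of all genes to be set against. With Xist-positive 5E1 cells only, the counts were 482 higher and 961 lower, and with thinned cells 328 were lower. Both settings use fewer UMIs, so the genes that reach 20 UMIs differ. These counts are not shares of the 11046 genes, and their size cannot be set against 242 and 506. In cluster 12 the counts were 190 and 534 of 10868, and in cluster 23 they were 247 and 298 of 10615.

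Hedgehog target genes, the readout closest to the antibody, were lower in the 5E1 library. Ptch1, the Hedgehog receptor and a target itself, had 14.1 CPM in the 5E1 and 80.3 CPM in the IgG library, 5.68-fold lower (3.77 to 8.97). Hhip, a membrane protein that sequesters the ligands, had 67.1 CPM in the 5E1 and 299 CPM in the IgG library, 4.46-fold lower (3.68 to 5.44), and was higher in cluster 21 than in clusters 12 and 23 in both. Gli1, the transcription factor, had 1.77 CPM in the 5E1 library, which is 3 UMIs, and 12.9 CPM in the IgG library, a ratio of 0.137 (0.0276 to 0.419), and Foxl1, a forkhead factor, 0.589 CPM (1 UMI) and 7.99 CPM, a ratio of 0.0737 (0.00182 to 0.434). All 8 measured targets were lower, against 54.6% of all genes tested, and 7 of the 8 had an interval that excluded equal levels. The list's median was log2 −1.47, against −2.04 in cluster 12 (−1.72 with genes at 0 UMIs set to the limit of 3) and −1.97 in cluster 23. In cluster 21 it was −0.74 over targets with at least 100 UMIs and −0.73 with thinned cells. The forkhead genes Foxf1 and Foxf2, Bmp4 and Osr1 complete the list. Foxf1 had 163 CPM in the 5E1 and 262 CPM in the IgG library, Bmp4, a bone morphogenetic protein ligand, 96.5 and 167 CPM, and Foxf2, whose interval included equal levels, 147 and 158 CPM. In cells thinned to 1000 UMIs, 9.16% of 5E1 and 24.3% of IgG cells had a Hhip UMI, and in cluster 4 none of the 426 thinned cells of the 5E1 library (a count of 0 allows 3 cells, 0.704%) and 2.13% of the IgG cells had one; at full depth 2 of those 426 cells did. Of the genes that receive and pass on the signal, Gas1, a co-receptor, had 85.4 CPM in the 5E1 and 36.8 CPM in the IgG library, and Smo had 83.6 and 65.3 CPM; 6 of 7 measured members were higher, with a median of log2 0.37. The 83 Xist-positive 5E1 cells had 118 CPM of Hhip against 296 CPM in the Xist-positive IgG cells and 12.1 against 79.6 CPM of Ptch1.

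Genes of the contractile apparatus were lower almost throughout. Acta2 was 2.46-fold lower in the 5E1 library, log2 −1.30, and Cnn1 had 261 CPM in the 5E1 and 651 CPM in the IgG library (log2 −1.31). Myocd, the coactivator of serum response factor that drives smooth muscle genes, had 5.30 CPM in the 5E1 and 29.8 CPM in the IgG library (log2 −2.42). Tagln, an actin-binding protein, had 2050 and 3480 CPM, Actg2, a smooth muscle actin, 929 and 1926 CPM, Tpm1, a tropomyosin, 778 and 1697 CPM, and Myl9, a myosin light chain, 914 and 1774 CPM in the 5E1 and IgG libraries. Of the 22 members, 21 were lower and 8 of these at least 2-fold, against 54.6% and 4.58% of all genes tested. Intervals excluded equal levels for 20 of the 21, the exception being Srf. Des, the intermediate filament protein desmin, was the member that was higher, with 1076 CPM in the 5E1 and 991 CPM in the IgG library, and it was lower (log2 −0.18) when only Xist-positive 5E1 cells were taken. The list's median was log2 −0.96, against −0.59 in cluster 12 and −0.61 in cluster 23; whether these medians differ was not tested. Summed over the list, cluster 21 had 13804 CPM in the 5E1 and 24704 CPM in the IgG library. In the 5E1 library the summed level was 10547 CPM in the 83 Xist-positive cells, 15367 CPM in the 113 cells with a Y-linked UMI only and 14363 CPM in the 181 cells with neither, all below the 24676 CPM of the Xist-positive IgG cells. Acta2 had 1371, 2801 and 2445 CPM in these 3 groups of 5E1 cells and 5720 CPM in the Xist-positive IgG cells. An Acta2 UMI was seen in 64.1% of thinned 5E1 and 94.2% of thinned IgG cells of cluster 21. In thinned cells of cluster 4 the shares were 7.28% (5E1) and 10.9% (IgG), with intervals that overlap. At full depth the cluster 4 shares were 15.7% (5E1) and 26.8% (IgG), with intervals that do not overlap. The part of background in the ratio of Acta2 was not tested. In clusters 16 and 22 the level of Acta2, given above, was slightly higher in the 5E1 library.

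The promoters of contractile genes are shown because many are known to carry the CArG box, the motif of serum response factor. In the mouse RefSeq promoters (build GRCm38.p6, 250 bases before the start of transcription), the box (CC, then 6 bases that are A or T, then GG, the same on both strands) was found in 5 of the 18 contractile genes with an entry, 27.8%, and in 482 of 32851 entries of all genes, 1.47%. The first share counts genes with a box in any of their entries and the second counts entries, so the 2 are unlike in unit. The contractile genes with a box were Cnn2, Myl6, Myl9, Srf and Vcl. Srf had 2 boxes, which did not overlap. The 3 sequences below, 5′ to 3′ on the gene's strand with the box in capitals, are those of Cnn2, a calponin (chr10:79988350-79988599, plus strand, box 56 bases before the start), Myl9 (chr2:156775214-156775463, plus strand, 161 bases) and Myl6, a myosin light chain (chr10:128493010-128493259, minus strand, 50 bases).
Cnn2: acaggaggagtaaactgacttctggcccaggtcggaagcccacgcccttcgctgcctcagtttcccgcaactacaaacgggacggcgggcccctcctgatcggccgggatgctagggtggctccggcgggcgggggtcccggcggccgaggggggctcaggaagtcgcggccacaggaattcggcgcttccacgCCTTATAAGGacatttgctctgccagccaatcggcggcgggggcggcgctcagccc
Myl9: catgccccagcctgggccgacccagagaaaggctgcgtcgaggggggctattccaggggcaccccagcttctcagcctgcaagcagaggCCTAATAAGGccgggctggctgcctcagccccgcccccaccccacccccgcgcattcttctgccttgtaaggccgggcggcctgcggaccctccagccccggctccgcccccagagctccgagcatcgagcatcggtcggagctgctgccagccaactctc
Myl6: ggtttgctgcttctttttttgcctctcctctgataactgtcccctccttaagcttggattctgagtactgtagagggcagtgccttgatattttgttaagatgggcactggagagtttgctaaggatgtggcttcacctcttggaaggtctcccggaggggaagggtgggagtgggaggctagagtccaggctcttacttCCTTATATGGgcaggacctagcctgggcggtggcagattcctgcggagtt
Cnn2 was log2 −1.07, Myl9 −0.96 and Myl6 −0.62 in 5E1 over IgG. Over the 5 genes with a box the median was −0.62, and over the 13 without one in this window −0.97, so contractile genes were lower in both sets. Only exact matches in this window were counted, so the 13 genes may hold boxes that differ by a base or lie elsewhere. The 2 medians therefore do not compare genes with and without serum response factor sites. A match of letters is a description and not a binding site.

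Elastin went the other way. Eln (chromosome 5, 134702593 to 134747323, minus strand), the core protein of elastic fibres, had 17500 CPM in the 5E1 and 6911 CPM in the IgG library, 2.53-fold higher (2.49 to 2.57). Fbn2, a fibrillin of the microfibril scaffold, had 142 and 69.2 CPM, and Loxl3 and Loxl1, lysyl oxidases that cross-link elastin and collagen, 111 against 58.7 CPM and 925 against 702 CPM (5E1 against IgG). Ltbp2, a microfibril-associated binding protein, had 862 CPM in the 5E1 and 589 CPM in the IgG library. Of 20 measured elastic fibre genes 16 were higher, against 45.4% of all genes tested. For 9 of the 16 the interval excluded equal levels, and the list's median was log2 0.23. The other 4, Fbn1, Loxl2, Efemp2 and Mfap5, were lower, each with an interval that excluded equal levels, the lowest being Fbn1 at log2 −0.35, and Mfap5 was higher (0.10) when only Xist-positive 5E1 cells were taken. Only Eln and Fbn2 were at least 2-fold higher, as were 2.19% of all genes tested. In cluster 12 the list's median was −0.17 and in cluster 23 it was −0.02, while Eln was higher in the 5E1 library in both, at 4901 against 2328 CPM and 6837 against 2950 CPM. Among the 5E1 cells of cluster 21, Eln had 10813 CPM in Xist-positive cells, 18190 CPM in cells with a Y-linked UMI only and 21331 CPM in cells with neither, against 6937 CPM in the Xist-positive IgG cells. In thinned cells 99.5% of the 5E1 and 94.0% of the IgG cells of cluster 21 had an Eln UMI, and 16.4% and 17.3% of cluster 4.

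Interstitial collagens were slightly higher and basement membrane collagens lower. Col1a1 had 1658 CPM in the 5E1 and 1153 CPM in the IgG library, and Col3a1 2092 and 1487 CPM. Of 11 such collagens 9 were higher, against 45.4% of all genes tested, and 7 had an interval excluding equal levels. Their median was log2 0.18, against −0.05 in cluster 12 and −0.27 in cluster 23. Col6a2, the exception with such an interval, had 260 CPM in the 5E1 and 335 CPM in the IgG library. The basement membrane chains Col4a1 and Col4a2 had 193 and 224 CPM in the 5E1 library and 366 and 380 CPM in the IgG library. Of 13 measured basement membrane genes 7 were lower, a share near the 54.6% of all genes, each with an interval excluding equal levels, among them Nid1 and the laminin chains Lamb1 and Lamc1, and Lamb2 was higher; the list's median was log2 −0.24, and 0.04 without the cells of highest doublet score. Aspn, a defining gene of the cluster, had 6544 CPM in the 5E1 and 2764 CPM in the IgG library, 2.37-fold higher (2.31 to 2.43). An Aspn UMI was seen in 90.3% of thinned 5E1 and 68.0% of thinned IgG cells, and in 0.704% and 2.40% of cluster 4. Among Xist-positive cells Aspn had 6168 CPM in the 5E1 and 2767 CPM in the IgG library, and the interstitial collagens summed to 7152 and 6118 CPM.

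**Figure D3:**
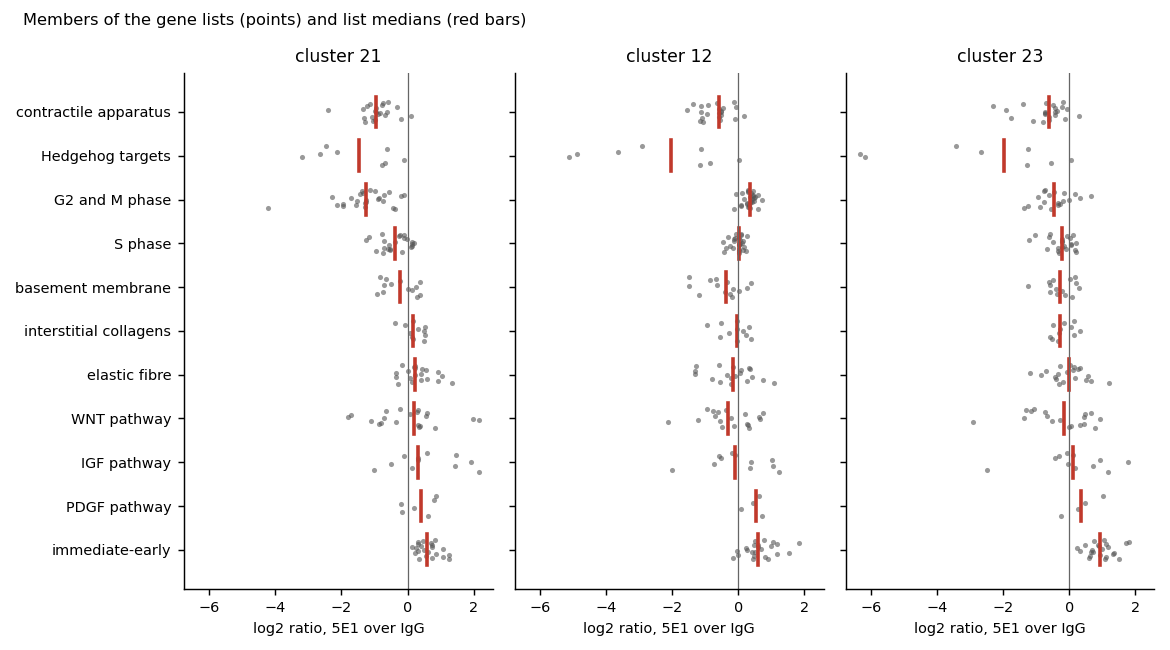
Log2 ratio of 5E1 over IgG for each measured member (points) of 11 gene lists, with the list's median (red bars), in clusters 21, 12 and 23; the 5E1 library's CPM is divided by the IgG library's. The medians of contractile genes and Hedgehog targets lie left of 0 and that of immediate-early genes right of 0 in the 3 clusters, while the G2 and M phase list has a median of −1.27 in cluster 21, 0.34 in cluster 12 and −0.45 in cluster 23.

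Secreted signals and their receptors were mixed. Igf1, insulin-like growth factor 1, had 296 CPM in the 5E1 and 604 CPM in the IgG library (log2 −1.03, and −0.76 with Xist-positive 5E1 cells only). Its binding proteins Igfbp2 and Igfbp6 were higher, at 75.3 against 20.1 CPM and 48.9 against 17.5 CPM (5E1 against IgG), and 8 of 11 members of the list, which also holds the imprinted RNA H19, were higher, with a median of log2 0.33. In the PDGF list, Pdgfrb, the receptor of pericytes, had 96.0 CPM in the 5E1 and 55.7 CPM in the IgG library and the ligand Pdgfa 61.8 and 40.3 CPM; 4 of 6 measured members were higher, with a median of 0.40. Pdgfra had an interval that included equal levels. In the WNT list, 11 of 20 were higher and 9 lower, median log2 0.18, and −0.25 in Xist-positive 5E1 cells. Notum, an enzyme that inactivates WNT ligands, had 58.3 CPM in the 5E1 and 13.1 CPM in the IgG library, and Axin2, a feedback target, 41.8 and 23.4 CPM. Tcf7 had 6.48 and 22.2 CPM, Sfrp1, a secreted WNT antagonist, 7.65 and 27.5 CPM, and Wnt5a, a ligand, 362 and 428 CPM in the 5E1 and IgG libraries.

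Fgfr2, a fibroblast growth factor receptor, was the lowest of its list, with 2.94 CPM in the 5E1 library (5 UMIs) and 31.8 CPM in the IgG library, a ratio of 0.0927 (0.0297 to 0.221). The list, Fgfr2 included, had 11 of 17 measured members higher, with a median of log2 0.20. Of the bone morphogenetic protein list 10 of 15 were lower, median −0.16, while its target genes Id2 and Id3 were higher, at 543 against 363 CPM and 1025 against 680 CPM (5E1 against IgG). Genes of transforming growth factor beta divided evenly, 9 higher and 9 lower of 18, with a median of −0.01 that became 0.03 with median-ratio scaling and 0.01 with thinned or without dividing cells; its ligand Tgfb3 had 290 CPM in the 5E1 and 209 CPM in the IgG library and the receptor Tgfbr2 36.5 and 51.3 CPM. Of the renin-angiotensin list only Agt, Ace and Enpep had 20 UMIs, with a median of −0.35. Enpep, the aminopeptidase that trims angiotensin II, had 3.53 and 12.1 CPM in the 5E1 and IgG libraries.

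Immediate-early genes, which cells induce within minutes of a stimulus or of dissociation, were all higher in the 5E1 library. Fos had 1794 CPM in the 5E1 and 754 CPM in the IgG library, Junb 1418 and 680 CPM, Dusp1, a phosphatase of this response, 641 and 305 CPM, and Btg2 850 and 354 CPM. All 22 measured members were higher, against 45.4% of all genes tested, and 17 had an interval that excluded equal levels. Their median was log2 0.60, the same in cluster 12 and 0.93 in cluster 23. The list summed to 10000 CPM in the 5E1 and 5786 CPM in the IgG library, and among Xist-positive cells to 7720 and 5789 CPM. Of 11 heat shock genes 11 had a ratio below 1 and 1 was at least 2-fold lower, against 54.6% and 4.58% of all genes tested. For 6 of them the interval excluded equal levels, and the median was −0.15. Hspa1a, whose reads a near-identical copy can share, had 47.1 CPM in the 5E1 and 100.7 CPM in the IgG library.

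Among the genes with the highest ratios of 5E1 over IgG were secreted proteins, genes of prostaglandin signalling and an imprinted RNA. Cthrc1, a secreted protein of activated fibroblasts, had 60.0 CPM in the 5E1 and 12.9 CPM in the IgG library, 4.67-fold higher (3.39 to 6.46). Penk, the enkephalin precursor, had 58.3 and 12.7 CPM, 4.60-fold higher, Notum was 4.46-fold higher, and H19 had 577 CPM in the 5E1 and 130 CPM in the IgG library, 4.45-fold higher (4.03 to 4.92). H19 was uneven among 5E1 cells, at 1103 CPM in Xist-positive cells, 337 CPM in those with a Y-linked UMI only and 483 CPM in those with neither, against 129 CPM in Xist-positive IgG cells. Cthrc1 varied less, at 53.2, 54.0 and 69.6 CPM against 12.8 CPM. Also among the 15 highest were Hpgd, which breaks down prostaglandins, and Ptger2, a prostaglandin E2 receptor, at 53.6 against 14.4 CPM and 54.2 against 18.5 CPM, the ubiquitin ligase Fbxo32, Ecm2, Fmo2, Fxyd6, the metalloprotease Adam33, the actin-severing protein Gsn, and Eln.

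Of the genes with the lowest ratios, Fbxl22, an F-box protein of the sarcomere, had 4.71 CPM in the 5E1 and 53.2 CPM in the IgG library, 11.3-fold lower (5.65 to 26.4). It differed less in the neighbouring clusters, at 6.78 against 13.9 CPM in cluster 12 and 22.3 against 31.4 CPM in cluster 23. Cdh11, a mesenchymal cadherin, had 16.5 and 89.8 CPM, 5.45-fold lower, Cd248, the stromal surface protein endosialin, 44.2 and 181 CPM, 4.10-fold lower, and Entpd1, an ectonucleotidase, 17.7 and 84.6 CPM, 4.79-fold lower (5E1 and IgG). Egln3, a prolyl hydroxylase of the hypoxia pathway, had 38.3 CPM in the 5E1 and 156 CPM in the IgG library, whereas the hypoxia list had 9 of 12 lower with a median of only −0.17. Tmem178, Ptch1, Hhip, Akap12, Pltp, Cd200, Pde1a, Adamts9, Bok and Enc1 complete the 15 lowest.

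**Figure D4:**
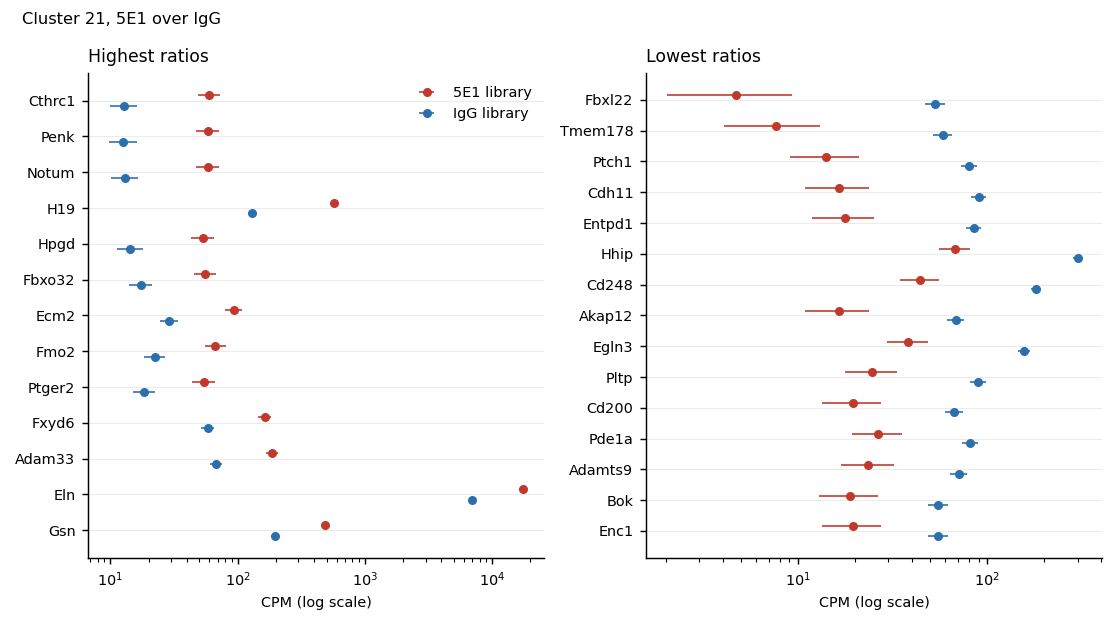
CPM (log axis) in cluster 21 of 13 of the 15 genes with the highest (left) and the 15 with the lowest (right) ratio of 5E1 over IgG among genes with 100 or more UMIs over both libraries and 50 CPM or more in 1 of them; red points are the 5E1 library, blue points the IgG library, bars exact 95% Poisson intervals. Eln stands apart in level, at 17500 and 6911 CPM, and Fbxl22 has the lowest ratio, at 4.71 and 53.2 CPM.

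Division was rare in cluster 21 in both libraries. In the 5E1 library all 26 measured genes of the G2 and M list were lower and 16 of them at least 2-fold, against 54.6% and 4.58% of all genes tested. For 18 of the 26 the interval excluded equal levels. The summed level was 187 CPM in the 5E1 and 402 CPM in the IgG library. The shares of dividing cells given above, 1.83% and 3.82% (7 and 37 cells), have intervals that overlap. With at least 1 UMI of the list the shares were 9.69% (6.91 to 13.1) in thinned 5E1 and 16.6% (14.3 to 19.1) in thinned IgG cells. At full depth, with at least 2 UMIs, they were 10.2% (7.32 to 13.6) and 20.4% (17.9 to 23.1). The intervals of both measures do not overlap, but they cover counting error only, with 1 library for each antibody. At full depth IgG cells were also deeper, with a median of 4981.5 UMIs against 4022.5 in 5E1 cells. The part of depth in those shares was not tested. Without the cells called dividing the list's median was −0.10 in place of −1.27. Those cells were called by UMIs of the same list, so this change follows in part from the rule, and nothing is concluded from it. The S phase list had 18 of 23 lower, with a median of −0.38, and 0.23 in Xist-positive 5E1 cells. In cluster 12 the G2 and M median was 0.34, the opposite sign.

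Among single cells of the cluster, Eln, Aspn and Acta2 were among the 6 genes of highest variance over mean in both libraries. At 1000 UMIs per cell, the ratio of variance to mean was 8.22 for Eln, 3.91 for Aspn and 3.52 for Acta2 in the 5E1 library and 5.20, 4.01 and 3.38 in the IgG library, against a median of 1.02 over 1465 genes of the 5E1 and 1518 of the IgG library. This ratio can rise with the mean and was not adjusted for it: their 5E1 means were 18.1, 7.10 and 2.19 UMIs, and genes entered from 0.1. The 5E1 cells also mix the groups by Xist and Y-linked UMIs, whose Eln levels differed as given above. Malat1, a nuclear RNA, was above all of them, at 11.4 and 10.3, and Actb, the cytoplasmic actin, had 4.13 and 7.40. A 5E1 cell had a median of 16 Eln UMIs (quartiles 8.25 and 25) and an IgG cell 5 (3 and 10). For Acta2 the median was 1 (0 and 3) in 5E1 cells and 5 (2 and 8) in IgG cells, and for Aspn 6 (3 and 10) and 2 (0 and 5). The whole distributions were shifted, with 35.9% of 5E1 and 5.78% of IgG cells at 0 UMIs of Acta2. The summed contractile list had a median of 11 UMIs (7 and 18) in 5E1 cells and 23 (16 and 32) in IgG cells. Across cells of 1 library, which share depth and preparation, Acta2 went with Tagln (Spearman's rho 0.460 in 5E1 and 0.446 in IgG cells) and slightly against Eln (−0.201 and −0.175), and Aspn with Dpt, a dermatopontin matrix protein (0.256 and 0.290), but not with Eln (−0.0097 and −0.037).

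**Figure D5:**
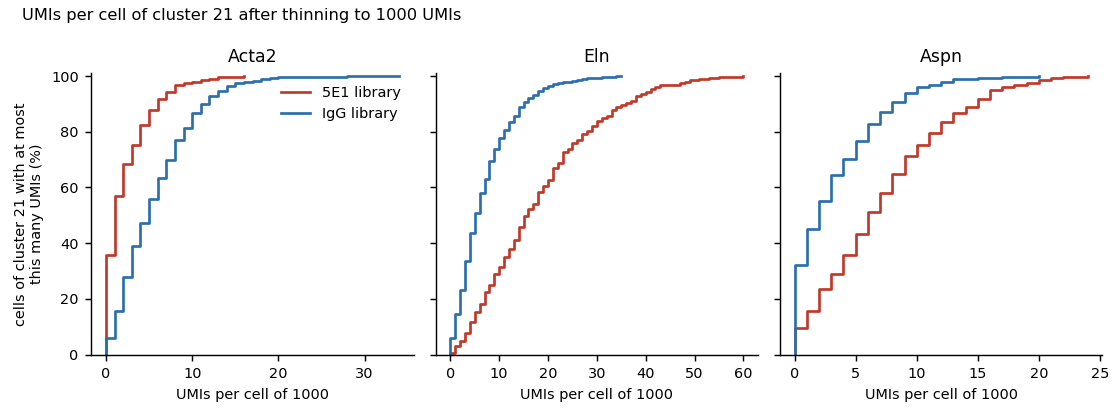
Share of cells of cluster 21 (percent, y axis) with at most a given number of UMIs (x axis) of Acta2, Eln and Aspn after thinning each cell to 1000 UMIs, for 382 cells of the 5E1 library (red) and 969 of the IgG library (blue). The red curve lies above the blue one for Acta2, with medians of 1 and 5 UMIs, and below it for Eln, with medians of 16 and 5, and for Aspn, with medians of 6 and 2.

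The remaining lists were near the median of all genes or mixed. Of mesenchymal transcription factors 11 of 19 were higher, median log2 0.07 (−0.05 with Xist-positive 5E1 cells only); Meox2 and Tcf21, homeobox and basic helix-loop-helix factors, were lower, at 1.18 against 13.6 CPM and 13.5 against 36.8 CPM, and Prrx1, a homeobox factor, was higher at 47.7 against 30.2 CPM (5E1 against IgG). YAP response genes had a median of 0.10 (6 of 11 higher; −0.01 with Xist-positive 5E1 cells only), lipid handling genes −0.35 (5 of 8 lower), and the 10 myofibroblast markers 0.10 (6 higher; −0.11 with Xist-positive 5E1 cells only), with summed levels of 17172 CPM in the 5E1 and 17156 CPM in the IgG library. Markers of other cell types were present too, with these sums in the 5E1 and the IgG library in this order: 499 and 617 CPM for alveolar type 2 cells, 188 and 71.1 CPM for type 1 cells, 192 and 216 CPM for endothelium, 244 and 475 CPM for macrophages, 1287 and 126 CPM for neutrophils, 12.4 and 25.5 CPM for lymphocytes. The neutrophil sum of the 5E1 library came mostly from few cells: 1055 of 1171 UMIs of S100a8 were in the top 5 cells. Markers shared with other mesenchyme summed to 557 and 340 CPM for pericytes, 2786 and 4223 CPM for smooth muscle, 217 and 346 CPM for matrix fibroblasts, 1244 and 1020 CPM for adventitial fibroblasts and 25.3 and 16.6 CPM for mesothelium. Marco and Ms4a1 were at 0 in the 5E1 library and Wt1 in the IgG library, and every other marker had at least 1 UMI in both. Sftpc, a type 2 gene, was seen in 34.0% of thinned 5E1 and 41.0% of thinned IgG cells of cluster 21 and in 31.9% and 47.7% of cluster 4. The part of such free RNA, or of red cells and neutrophils caught with a myofibroblast, in the ratios above was not tested; the named genes leave out haemoglobins and genes with under 5% of their level in the highest cluster.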

How the data were processed

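The lungs gave 1 droplet single-cell RNA library for each antibody. The authors deposited UMI counts per gene and cell barcode, 10519 barcodes in the 5E1 and 15021 in the IgG library, and a cell table with cluster numbers for 9454 and 13509 of them, which alone were used here. Its header is shifted, and the library and cluster columns were identified from their values and from the barcode prefixes. Cell Ranger 3.1.1 and the mouse build mm10 are named per the submitters' processing notes, while the matrix headers name another software version. Annotated libraries held 58890639 and 77436890 UMIs (5E1 and IgG), with medians of 4636 and 4541 per cell, and no annotated cell had under 500 genes or over 10.0% mitochondrial UMIs.

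Counts were summed per cluster and library and scaled to a sum of 1000000 (CPM). Log2 ratios have 0.5 UMI added, genes with under 20 UMIs in both sums together were left out, and the threshold was 2-fold. Intervals are exact Poisson (levels), exact conditional binomial (ratios) and Clopper-Pearson (shares). Cells were thinned to 1000 UMIs for shares and spreads (2 cells of the 5E1 and 5 of the IgG library of cluster 21 were shallower). Tools were Python 3.11.15, numpy 2.4.6, scipy 1.17.1, pandas 2.3.3, scanpy 1.11.5 and matplotlib 3.10.9, and the steps were tested on simulated data. Scrublet (in scanpy) called 1 of 9454 cells of the 5E1 and 716 of 13509 cells of the IgG library (5.3%), so its calls were not used and no doublets were removed. In cluster 21 it called 0 of 384 cells of the 5E1 and 83 of 974 of the IgG library (8.52%). Cells of the 8% highest doublet scores of each library were 4.17% of cluster 21 in the 5E1 and 9.86% in the IgG library. The gene Ltbp4 is listed under a symbol that occurs more than once, and its first entry was used. There were 0 unused columns of per-sample values.

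Members, the 22 gene lists and 12 cell type lists were chosen with earlier results of these data known. Genes named are the 4 markers, the 15 highest and 15 lowest ratios of 5E1 over IgG and the 12 highest and 12 lowest of cluster 21 over clusters 12 and 23 (at least 100 UMIs and 50 CPM), the 10 of highest fold over other cells, the 10 of highest variance over mean, and list members with 20 UMIs, of which a choice is printed; some genes are not reported here. These leave out mitochondrial, ribosomal, haemoglobin, immunoglobulin, predicted and Y-linked genes, Xist and Tsix. Other X-linked genes were not left out for being X-linked. Alternatives were median-ratio scaling, other filters, thinning, Xist-positive 5E1 cells only, no dividing cells and, chosen after seeing the data, no cells of the 8% highest doublet scores.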

Additional observations from a re-analysis of the deposited data

Results flagged for a closer look

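In a few genes the ratio of 5E1 over IgG in cluster 21 had the opposite direction in cluster 12 or 23, with the higher library at least 25% above the lower in each cluster and intervals that excluded equal levels, a threshold chosen after seeing the data. Whether the ratios differ between clusters was not tested, and they rest on 1 library for each antibody. Some matrix and growth factor genes had a ratio above 1 in cluster 21 and below 1 in a neighbouring cluster. The ratio of Loxl1, a lysyl oxidase, was 1.32 in cluster 21, 0.789 in cluster 12 and 0.794 in cluster 23. That of Igfbp4, an insulin-like growth factor binding protein, was 1.26 in cluster 21, 0.699 in cluster 12 and 0.740 in cluster 23. For Pappa2, a protease of some insulin-like growth factor binding proteins, the ratios were 1.31, 0.462 and 0.398 in the same order. Against cluster 12 alone, Tgfb3, a transforming growth factor beta ligand, had 1.39 in cluster 21 and 0.723 in cluster 12, and Dkk3, a secreted member of the Dickkopf family, 1.27 and 0.704. Genes of mitosis had the reverse order. Top2a, a topoisomerase of dividing cells, had a ratio of 0.375 in cluster 21 and 1.36 in cluster 12, Cenpa, a centromere histone, 0.414 and 1.34, and Cenpf, a kinetochore protein, 0.584 and 1.38.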

How the results depend on the processing

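No paired analysis was possible because each antibody has 1 library. The antibody, the sex of the pups, the library and its preparation cannot be told apart, and depth limits genes under about 20 UMIs. Removal of the doublets that Scrublet called was not run, since it called almost none in the 5E1 library. The cause of the changes below was not tested, except that filters change the number of genes tested.

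Between 5E1 and IgG in cluster 21, 242 genes were at least 2-fold higher and 506 lower. These were 61 and 111 with at least 100 UMIs, 1395 and 1434 with no filter, and 482 and 961 with Xist-positive 5E1 cells only, and 328 were lower with thinned cells. For cluster 21 over cluster 12 (higher and lower), at least 100 UMIs gave 360 and 326 in the 5E1 and 425 and 477 in the IgG library, no filter 3208 and 2054, and 2886 and 2011, and thinning 528 and 366 in the 5E1 library and 626 higher in the IgG library. Over cluster 23, at least 100 UMIs gave 265 and 120, and 279 and 71, no filter 2606 and 1225, and 2010 and 1264, and thinning 445 and 220 in the 5E1 library and 470 higher in the IgG library.

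The median log2 ratio of Hedgehog targets was −0.74 with at least 100 UMIs and −0.73 with thinned cells, in place of −1.47. That of transforming growth factor beta genes, −0.01, was 0.0295 with median-ratio scaling, 0.0116 with thinned cells and 0.0107 without dividing cells, and that of the renin-angiotensin list 0.15 with no filter. The G2 and M list had −0.10 without dividing cells, which were called by that same list. Without the cells of highest doublet score the basement membrane list had 0.0425.

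With Xist-positive 5E1 cells only, the contractile median was −1.27, the WNT median −0.25, the S phase median 0.23, the YAP median −0.0141, that of mesenchymal factors −0.0516 and that of myofibroblast markers −0.11. The ratio of Agt became −0.13, of Des −0.18 and of Mfap5 0.0983. In cluster 21 Acta2 had −2.06, Eln 0.65, Aspn 1.16, Tgfbi −0.0350 and Igf1 −0.76. In cluster 12 Acta2 had −0.82, Eln 0.69, Tgfbi −0.92 and Pdgfra −0.25, and in cluster 23 Acta2 had −0.74, Eln 0.58, Pdgfra 0.0463 and Igf1 −2.22.

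Shares of dividing cells without thinning were 10.2% and 20.4% in cluster 21, 94.6% and 88.6% in cluster 12 and 31.0% and 36.4% in cluster 23 (5E1 and IgG). With at least 1 UMI they were 9.69% and 16.6%, 88.0% and 75.7%, and 16.7% and 23.2%. The coefficient of variation of summed contractile UMIs among IgG cells was 43.7% at 2000 UMIs per cell and 46.0% at 1000.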
